A study of Mus musculus with 6 samples.

Results

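The mRNA levels of 35 core genes of autophagy and the lysosome were followed, among 54532 genes in the deposited count table. The genes were chosen by name and comprised 14 genes of initiation, 13 of conjugation and 8 of the lysosome. They were measured in MLE12 cells, an immortalized mouse lung epithelial line, labelled as C57BL/6J. The Ctrl shRNA group (n = 3) received a control lentivirus, which the study calls both empty and shCtrl, at an MOI (infectious particles added per cell) of 50. The Idh3α shRNA + Slc25a1 shRNA group (n = 3, the knockdown below) received a lentivirus against each gene at an MOI of 50 per virus. Taken as listed, these doses give the knockdown more virus in total, and the study does not say whether the control dose was matched. All cells were exposed to the HitransG P infection reagent, were washed after 16 h and were then grown for 80 h. Slc25a1 encodes the mitochondrial citrate carrier and Idh3α the catalytic subunit of a citrate cycle enzyme, and the study used their joint loss to raise citrate in mitochondria. A single cell line and a single hairpin per gene were used, and nothing in the labels says that the replicates were separate cultures, so p-values measure the spread between these samples, which may be technical. In such bulk samples, fewer cells of a kind and less RNA per cell cannot be told apart.

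Autophagy encloses cell contents in a double membrane, the autophagosome, and delivers them to the lysosome for digestion. It begins with the ULK1 kinase complex and a class III PI3-kinase complex that makes the membrane lipid PI3P. It continues through a pair of ubiquitin-like conjugation reactions that attach the ATG8 proteins (the LC3 and GABARAP families) to the growing membrane, and it ends with fusion to a lysosome whose genes the transcription factors TFEB and TFE3 can switch on. Much of this control acts on the proteins, through phosphorylation, lipid attachment and turnover, which RNA sequencing does not measure. In alveolar type 2 cells, the surfactant-making cells of the lung, lysosome-related organelles also store surfactant.

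The total count ran from 27273502 to 28535653 per sample. Ctrl shRNA 2 stood apart from the other 5 libraries. It detected 16681 genes where the others detected 19902 to 23147, and 27.2% of the counts fell on its 100 highest genes, against 12.5 to 12.9%. Mitochondrially encoded genes took 6.49% of its counts, against 1.57 to 1.80% in the others. *Idh3a* and *Slc25a1* had log2 fold changes of -0.85 and -0.62 with all samples, where neither passed edgeR's test, and of -0.60 and -0.66 without Ctrl shRNA 2, where both passed (edgeR adjusted p = 0.0142 and 0.00649). Of the lung epithelial markers, *Nkx2-1*, *Krt8* and *Abca3* were detected in every sample, while *Sftpd* was at 0 and *Sftpc*, the surfactant protein gene that defines type 2 cells, was at 44.1, 97.3 and 50.9 CPM (read counts divided by the TMM-adjusted library size) in the 3 controls against 35.9, 28.5 and 27.2 CPM in the 3 knockdown samples. The 11 epithelial markers, 7 of them tested, summed to 837 to 899 CPM in the controls and 784 to 838 CPM in the knockdown. Of 6 macrophage markers, *Ptprc*, *Adgre1* and *Marco* were at 0 in every sample, and the list summed to 1.84 to 1.95 CPM in the controls and 2.47 to 2.76 CPM in the knockdown. The 3 endothelial markers summed to less than 1 CPM in each sample, and the 5 fibroblast markers to 346 to 1230 CPM in the controls and 317 to 345 CPM in the knockdown, nearly all of it *Dcn*, with *Col3a1* at 0. The part of these differences in the results below was not tested.

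None of the 35 genes passed an adjusted p of 0.05 in edgeR's quasi-likelihood test with all 6 samples, where 0.0653% of the 15307 genes tested passed. None passed without Ctrl shRNA 2 either, where 1.79% of 15709 genes did. The lowest adjusted p among the 35 genes was 0.311 with all samples and 0.0803 without Ctrl shRNA 2, both from edgeR. At an unadjusted p under 0.05 there were 4 of the 35 genes (11.4%), against 14.1% of all genes, and without Ctrl shRNA 2 there were 7 (20.0%), against 19.9%. DESeq2 passed 0 of the 35 with all samples, where it passed 2.51% of the genes, and 2 of them without Ctrl shRNA 2 (*Tfe3* higher and *Gabarap* lower), where it passed 6.58%, with 3.93% higher and 2.65% lower. With limma and sample quality weights, which gave Ctrl shRNA 2 little weight, *Tfe3* and *Atg2b* passed as higher and *Gabarap* as lower, 8.57% of the 35 genes against 15.0% of all genes (8.67% higher and 6.34% lower). By each of these rules the share of the 35 genes that passed was close to or below the share of all genes.

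The direction of the 35 genes was mixed. With all samples 17 had a log2 fold change (knockdown over control) above 0 and 18 below it, and the median log2 fold change was -0.01, as it was over all genes tested. Without Ctrl shRNA 2, 12 lay above 0 and 23 below it, with a median of -0.06 against -0.02 over all genes. By step, the medians with all samples and without Ctrl shRNA 2 were 0.05 and 0.00 for initiation, -0.15 and -0.06 for conjugation, and -0.06 and -0.11 for the lysosome. These signs depend on the scaling. When libraries were scaled by total count only, which moved the median of all genes to 0.16, 26 of the 35 genes lay above 0, and 18 lay above that median.

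The 95% intervals give the size of change left possible by the spread between these samples, which may be technical, and under TMM scaling. With all samples the interval lay within a 1.5-fold change either way for 24 of the 35 genes (68.6%), against 45.2% of all genes. Without Ctrl shRNA 2 it did so for 33 (94.3%), against 60.0%. *Gabarap* and *Atg10* were the exceptions. Narrow intervals were not particular to the 35 genes. Of the further autophagy and lysosome genes listed below, 81 of 119 lay within this bound with all samples and 104 of 120 without Ctrl shRNA 2. The median standard error (SE) of a log2 fold change was 0.11 for the 35 genes with all samples and 0.09 without Ctrl shRNA 2, against 0.17 and 0.11 over all genes. Intervals of 13 initiation genes lay within that bound with all samples, as did those of 6 conjugation genes and 5 lysosome genes.

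**Figure D1:**
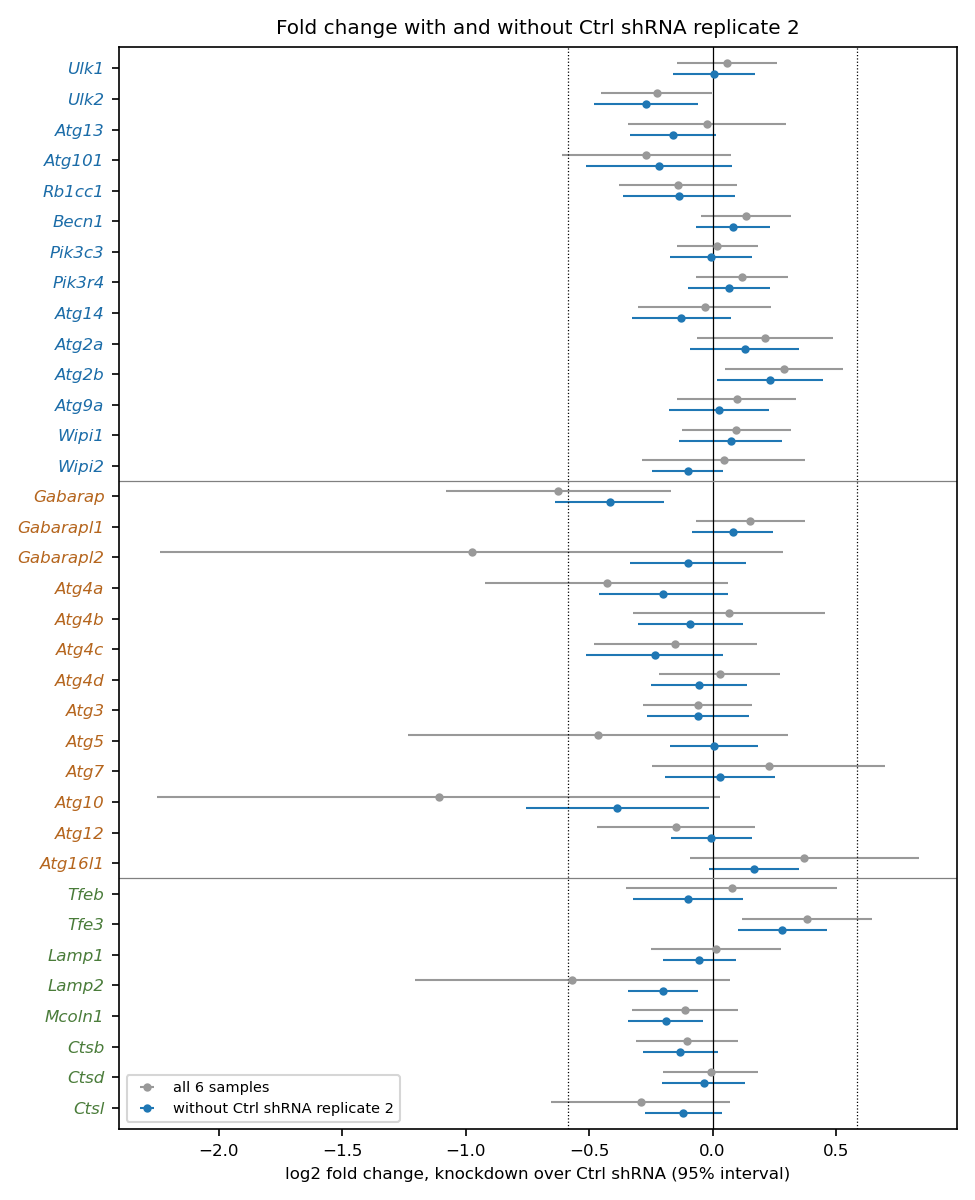
Log2 fold change of each gene, knockdown over Ctrl shRNA, with its 95% interval from edgeR, for all 6 samples (grey) and without Ctrl shRNA replicate 2 (blue), with name colours for initiation (blue), conjugation (brown) and lysosome (green). The dotted lines mark a 1.5-fold change, and without replicate 2 the interval of 33 of the 35 genes lies between them.

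**Figure D2:**
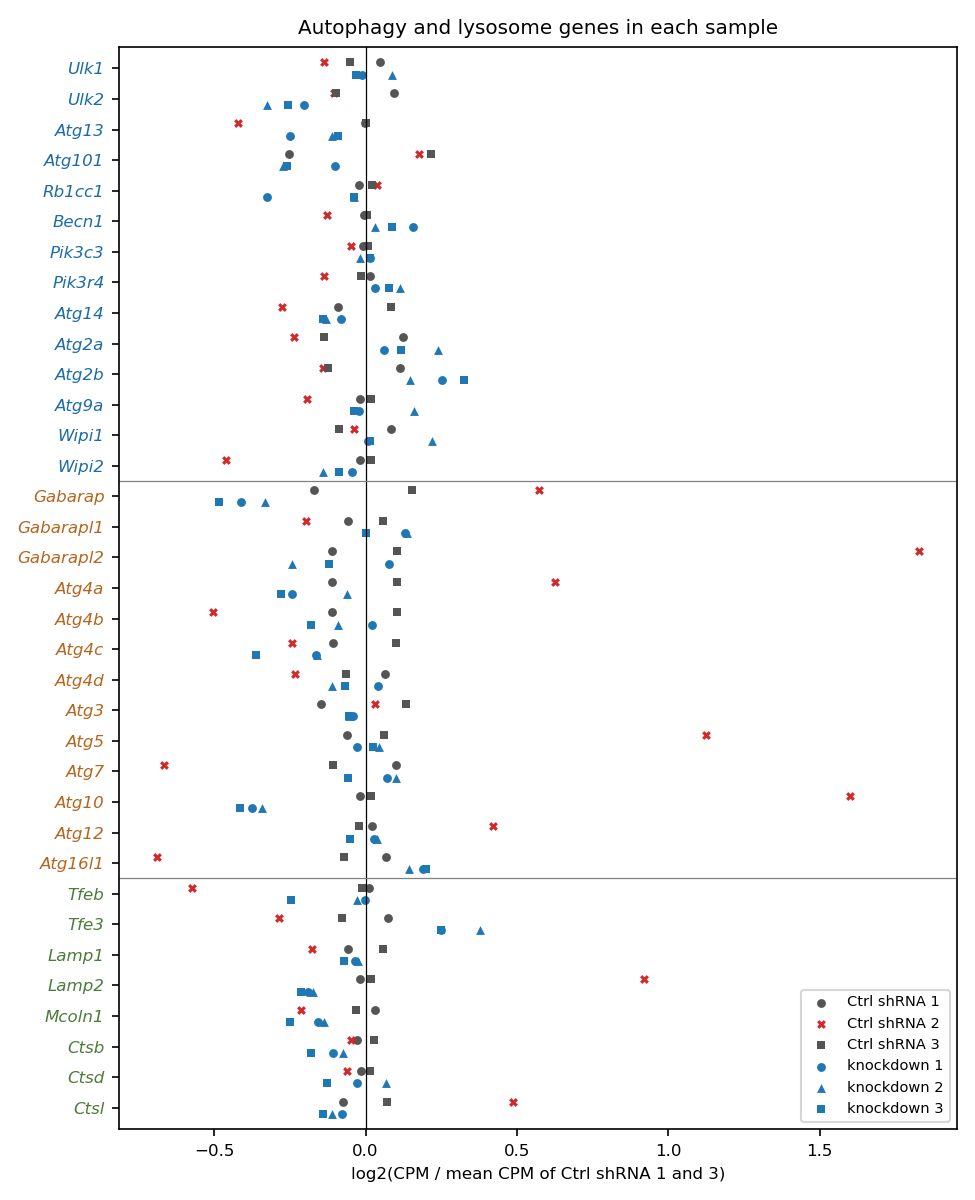
Level of each gene in each of the 6 samples, as the log2 ratio of its CPM to the mean CPM of Ctrl shRNA 1 and 3, with the same name colours. Ctrl shRNA 2 (red crosses) lies at least 1.5-fold above that mean for 5 genes and at least 1.5-fold below it for 2, and the knockdown samples are blue.

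Levels were compared between genes per kilobase of gene length. *Lamp1*, which encodes the main glycoprotein of the lysosomal membrane, was highest, with a mean of 384 CPM per kilobase over the 6 samples. *Gabarap* followed at 116, then the cathepsin genes *Ctsb* at 74.8 and *Ctsd* at 68.6, whose ranges over samples overlapped. On the same strand, *Ctsd* shares 34.4% of its exonic bases with *Gm49369*, and *Atg9a* shares 31.8% with *Gm29253*. Both of these other genes had a mean of 0 counts. How reads in shared bases were counted is not given, and the effect on these levels was not tested. *Ulk1* was highest among the initiation genes at 32.2 CPM per kilobase and exceeded its relative *Ulk2* (4.46) in every sample. The lowest were *Atg16l1* at 3.45, *Atg4c* at 3.25 and *Atg10* at 2.92 CPM per kilobase, and the ranges of these 3 neighbours overlapped.

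**Figure D3:**
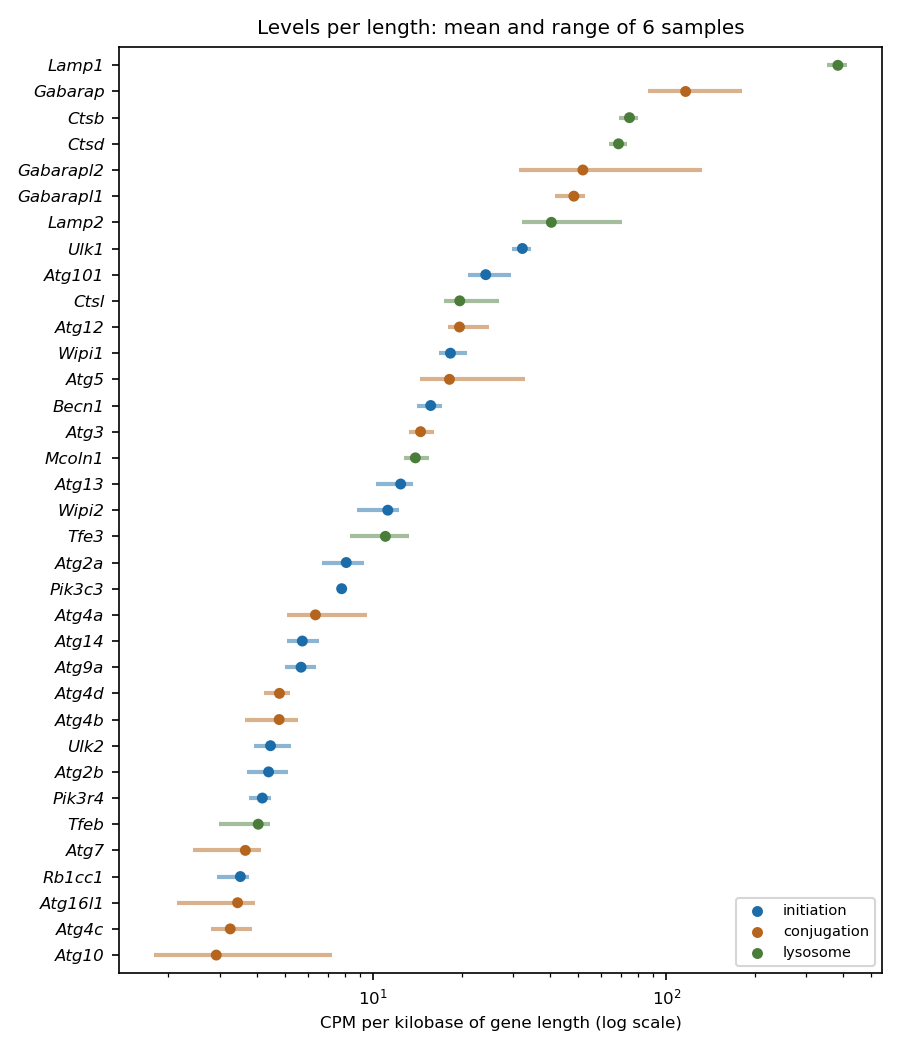
Level of each gene in CPM per kilobase of gene length on a log scale, with the mean of 6 samples (point) and their range (line), coloured by step. *Lamp1* stands highest at 384 CPM per kilobase and *Atg10* lowest at 2.92, and the longest lines belong to genes that are high in Ctrl shRNA 2, such as *Gabarapl2*.

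The ULK complex starts autophagy when nutrients or energy fall. Of its 5 genes none passed the test, and their log2 fold changes lay between -0.27 and 0.06. *Ulk1*, the kinase itself, had 219, 192 and 204 CPM across Ctrl shRNA 1 to 3 and 209.7, 224 and 206 CPM across knockdown 1 to 3. The groups overlapped, with a mean of 205 ± 13.1 CPM (SD, n = 3) in the controls and 214 ± 9.61 CPM (SD, n = 3) in the knockdown. Its log2 fold change was 0.06 (SE 0.08, 95% interval -0.14 to 0.26, edgeR adjusted p = 0.734) and 0.01 without Ctrl shRNA 2 (interval -0.16 to 0.17).

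*Ulk2*, the second kinase of this kind, measured 31.4, 27.4 and 27.5 CPM in Ctrl shRNA 1, 2 and 3 and 25.6, 23.5 and 24.7 CPM after knockdown. All knockdown samples lay below all controls. The log2 fold change was -0.23 (SE 0.09, 95% interval -0.45 to -0.00, edgeR adjusted p = 0.352), and -0.27 without Ctrl shRNA 2 (edgeR adjusted p = 0.167). *Atg101*, whose product stabilizes ATG13 in the complex, was at 34.0, 45.7 and 47.0 CPM in the 3 controls against 37.8, 33.6 and 33.8 CPM in the 3 knockdown samples. Here Ctrl shRNA 1 lay among the knockdown samples and the other 2 controls above them. Its log2 fold change was -0.27 (SE 0.14, 95% interval -0.61 to 0.07, edgeR adjusted p = 0.387), and -0.22 without Ctrl shRNA 2. The scaffold genes *Atg13* and *Rb1cc1* (FIP200) had log2 fold changes of -0.02 and -0.14 with all samples and of -0.16 and -0.14 without Ctrl shRNA 2, and both were lower in every knockdown sample than in Ctrl shRNA 1 and 3.

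The class III PI3-kinase complex supplies PI3P at the site where the autophagosome forms. None of its 4 genes passed the test, and all 4 intervals lay within a 1.5-fold change with all samples. *Becn1*, the Beclin 1 gene, had a log2 fold change of 0.13 and *Pik3r4*, the gene of the regulatory subunit VPS15, of 0.12, and both were higher in every knockdown sample than in every control. These values were 0.08 and 0.07 without Ctrl shRNA 2. *Pik3c3*, the lipid kinase VPS34, was nearly level, with 33.9 to 35.2 CPM in the controls and 34.5 to 35.4 CPM in the knockdown. Its log2 fold change was 0.02 (95% interval -0.15 to 0.19), and -0.01 without Ctrl shRNA 2. *Atg14*, which directs the complex to autophagy, had a log2 fold change of -0.03 with all samples and -0.13 without Ctrl shRNA 2. Of the exonic bases of *Becn1*, 43.9% are shared with *Cntd1* on the opposite strand, a gene with a mean of 13.2 counts per sample against 3145 for *Becn1*. Whether the counting used strand is not given in the sources used here.

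The remaining initiation genes supply lipid to the growing membrane and read PI3P on it. All 5 had log2 fold changes above 0 with all samples, none passed edgeR's test, and 1 of them (*Wipi2*) was below 0 without Ctrl shRNA 2. ATG2A and ATG2B move lipid from the endoplasmic reticulum. *Atg2b* (ENSMUSG00000041341) lies at chr12:105616136-105685211 on the minus strand of GRCm38, and 2.85% of its exonic bases are shared with *Gskip* on the opposite strand. *Atg2b* had 59.5, 49.8 and 50.5 CPM across Ctrl shRNA 1 to 3 and 65.5, 60.9 and 68.8 CPM across knockdown 1 to 3. Every knockdown sample lay above every control, though knockdown 2 exceeded Ctrl shRNA 1 by little. The mean was 53.2 ± 5.40 CPM (SD, n = 3) against 65.1 ± 3.96 CPM (SD, n = 3). That is a log2 difference of 0.29 (SE 0.10, 95% interval 0.05 to 0.53, edgeR adjusted p = 0.339). It was 0.23 without Ctrl shRNA 2 (edgeR adjusted p = 0.218), and *Atg2b* passed with limma's sample quality weights (adjusted p = 0.0208).

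*Atg2a* measured 66.1, 51.5 and 55.2 CPM in Ctrl shRNA 1, 2 and 3 and 63.3, 71.6 and 65.7 CPM after knockdown. Ctrl shRNA 1 lay within the knockdown range, and the log2 fold change was 0.21 (SE 0.11, 95% interval -0.06 to 0.49, edgeR adjusted p = 0.389), and 0.13 without Ctrl shRNA 2. *Wipi1*, a PI3P reader, was at 83.5, 76.8 and 74.2 CPM in the 3 controls against 79.3, 91.7 and 79.6 CPM in the 3 knockdown samples. The groups overlapped and the log2 fold change was 0.10 (SE 0.09, edgeR adjusted p = 0.599), and 0.07 without Ctrl shRNA 2. *Wipi2*, the PI3P reader that recruits ATG16L1, had 126, 93.0 and 129 CPM across Ctrl shRNA 1 to 3 and 124, 116 and 120.4 CPM across knockdown 1 to 3. Ctrl shRNA 2 was the lowest of the 6 samples and the other controls were the highest, and the log2 fold change was 0.05 with all samples (95% interval -0.28 to 0.38, edgeR adjusted p = 0.883) and -0.10 without Ctrl shRNA 2 (interval -0.25 to 0.04). *Atg9a*, the gene of a lipid scramblase carried on vesicles, had log2 fold changes of 0.10 and 0.03 in these fits and overlapping groups.

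The GABARAP proteins are ATG8 proteins that become attached to the autophagosome membrane. *Gabarap* (ENSMUSG00000018567) lies at chr11:69991143-69994951 on the plus strand of GRCm38. *Gabarap* measured 199, 332 and 249 CPM in Ctrl shRNA 1, 2 and 3 and 168, 178 and 160.0 CPM after knockdown. All 3 knockdown samples lay below all 3 controls, and Ctrl shRNA 2 was the highest sample. The mean was 260.0 ± 67.5 CPM (SD, n = 3) against 169 ± 8.75 CPM (SD, n = 3), and the log2 fold change was -0.62 (SE 0.19, 95% interval -1.08 to -0.17, edgeR adjusted p = 0.318). Without Ctrl shRNA 2 it was -0.42 (95% interval -0.64 to -0.20, edgeR adjusted p = 0.0803), the lowest adjusted p of the 35 genes in that fit. *Gabarap* passed as lower with DESeq2 without Ctrl shRNA 2 (adjusted p = 0.00237) and with limma's sample quality weights (adjusted p = 0.00798). Over all the fits tried its adjusted p ran from 0.00237 to 0.675.

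The other 2 genes of the subfamily had overlapping groups. *Gabarapl1* was at 92.3, 83.9 and 100 CPM in the 3 controls against 105, 106 and 96.3 CPM in the 3 knockdown samples. Its log2 fold change was 0.15 (SE 0.09, 95% interval -0.07 to 0.37, edgeR adjusted p = 0.419), and 0.08 without Ctrl shRNA 2. *Gabarapl2* (GATE-16) had 80.0, 307 and 92.8 CPM across Ctrl shRNA 1 to 3 and 91.1, 73.1 and 79.5 CPM across knockdown 1 to 3. Ctrl shRNA 2 was 3.54 times the mean of the other 2 controls (0.5 CPM added to both, as in all such ratios), and these lay in or close to the knockdown range. The log2 fold change of *Gabarapl2* was -0.98 with all samples (SE 0.52, 95% interval -2.24 to 0.29, edgeR adjusted p = 0.390) and -0.10 without Ctrl shRNA 2 (interval -0.33 to 0.14).

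The ATG4 proteases trim ATG8 proteins before attachment and free them afterwards. None of the 4 genes passed. All 4 had log2 fold changes below 0 without Ctrl shRNA 2, from -0.23 for *Atg4c* to -0.06 for *Atg4d*, and 2 of them (*Atg4b* and *Atg4d*) were above 0 with all samples. *Atg4a* had the lowest value with all samples, -0.43 (95% interval -0.92 to 0.06, and -0.20 without Ctrl shRNA 2), with Ctrl shRNA 2 at 1.53 times the mean of the other controls. *Atg4d* shares 19.3% of its exonic bases with *Kri1* on the opposite strand, which had a mean of 416 counts per sample against 987 for *Atg4d*.

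The last group of conjugation genes holds the enzymes and the ATG12-ATG5-ATG16L1 complex that places ATG8 proteins on the membrane. None of the 6 passed the test with all samples or without Ctrl shRNA 2. *Atg16l1*, whose product marks where attachment takes place, measured 34.7, 20.5 and 31.6 CPM in Ctrl shRNA 1, 2 and 3 and 37.8, 36.6 and 38.0 CPM after knockdown. Every knockdown sample lay above every control, and Ctrl shRNA 2 was the lowest sample. The log2 fold change was 0.37 (SE 0.19, 95% interval -0.09 to 0.84, edgeR adjusted p = 0.384) and 0.17 without Ctrl shRNA 2 (interval -0.01 to 0.35, edgeR adjusted p = 0.286).

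*Atg10*, the enzyme that joins ATG12 to ATG5, was the lowest of the 35 genes in level. It was at 4.04, 12.4 and 4.15 CPM in the 3 controls against 3.16, 3.23 and 3.07 CPM in the 3 knockdown samples. The knockdown samples lay below all controls and close together, while Ctrl shRNA 2 was at 2.81 times the mean of the other controls. The log2 fold change was -1.11 with all samples (SE 0.47, 95% interval -2.25 to 0.03, edgeR adjusted p = 0.356), the lowest of the 35 genes, and -0.39 without Ctrl shRNA 2 (interval -0.76 to -0.01, edgeR adjusted p = 0.238). *Atg7*, the activating enzyme shared by both reactions, had 28.7, 16.9 and 24.9 CPM across Ctrl shRNA 1 to 3 and 28.2, 28.7 and 25.8 CPM across knockdown 1 to 3. Ctrl shRNA 2 was again the lowest sample, and every knockdown sample lay between the other controls, with knockdown 2 only just below Ctrl shRNA 1. Its log2 fold change was 0.23 (SE 0.20, edgeR adjusted p = 0.560) and 0.03 without Ctrl shRNA 2 (95% interval -0.19 to 0.25). *Atg3*, *Atg5* and *Atg12* had log2 fold changes of -0.06, -0.46 and -0.15 with all samples and of -0.06, 0.00 and -0.01 without Ctrl shRNA 2, where their intervals lay within 0.27 of 0.

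TFEB and TFE3 are related transcription factors that enter the nucleus when the nutrient sensor MTORC1 is inactive. *Tfe3* (ENSMUSG00000000134) lies at chrX:7762560-7775202 on the plus strand of GRCm38. *Tfe3* measured 99.1, 77.1 and 89.1 CPM in Ctrl shRNA 1, 2 and 3 and 112, 122 and 112 CPM after knockdown. All 3 knockdown samples lay above all 3 controls. The mean was 88.4 ± 11 CPM (SD, n = 3) against 115 ± 5.98 CPM (SD, n = 3). That is a log2 difference of 0.38 (SE 0.11, 95% interval 0.12 to 0.64, edgeR adjusted p = 0.311). It was the highest of the 35 genes in both fits, at 0.28 without Ctrl shRNA 2 (interval 0.10 to 0.46, edgeR adjusted p = 0.118). *Tfe3* passed as higher with DESeq2 without Ctrl shRNA 2 (adjusted p = 0.0301) and with limma's sample quality weights (adjusted p = 0.0144). *Tfeb* was at 25.3, 16.9 and 24.9 CPM in the 3 controls against 25.0, 24.6 and 21.1 CPM in the 3 knockdown samples. Ctrl shRNA 2 was the lowest sample, knockdown 3 was the next lowest and the groups overlapped, and the log2 fold change was 0.08 with all samples (95% interval -0.35 to 0.50, edgeR adjusted p = 0.844) and -0.10 without Ctrl shRNA 2.

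These factors are known to bind the palindrome CACGTG, often within GTCACGTG, in promoters of lysosomal genes. Promoter sequences of RefSeq on GRCm38.p6, from 250 bases before to 50 bases after a start site, were matched by symbol for 29 of the 35 genes, with 34 promoters. CACGTG, which reads the same on both strands, lay in 8 of the 34 (23.5%), against 7.15% of 32851 mouse promoters, and GTCACGTG, on either strand and always containing CACGTG, lay in 6 (17.6%), against 2.25%. Such a match is a description and not a bound site. The *Lamp1* promoter is shown because it held the most matches, 4 in the 120 bases before its start site, from chr8:13159041-13159160 on the plus strand, with CACGTG in capitals and the rest in lower case:
Lamp1: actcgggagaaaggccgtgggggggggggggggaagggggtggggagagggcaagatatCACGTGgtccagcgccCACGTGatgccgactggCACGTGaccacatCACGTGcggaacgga
The other 5 genes with GTCACGTG on either strand are shown as 30 bases centred on the match nearest the start site, to let the flanks be compared. They lie at chr8:3500462-3500491 (plus strand) for *Mcoln1*, chr7:142387908-142387937 (minus strand) for *Ctsd*, chr16:45158746-45158775 (plus strand) for *Atg3*, chr6:114670952-114670981 (plus strand) for *Atg7* and chr14:47568418-47568447 (minus strand) for *Atg14*, each written on the strand of its gene. In the GENCODE M21 annotation the windows of *Mcoln1*, *Ctsd* and *Atg14* lie in exons of these genes, and those of *Lamp1*, *Atg3* and *Atg7* do not:
Mcoln1: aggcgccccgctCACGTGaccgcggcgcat
Ctsd: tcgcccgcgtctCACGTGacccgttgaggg
Atg3: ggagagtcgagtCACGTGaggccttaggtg
Atg7: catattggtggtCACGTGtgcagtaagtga
Atg14: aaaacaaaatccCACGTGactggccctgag
*Atg5* and *Ctsl* held CACGTG without that flank. The 8 genes with CACGTG had a median log2 fold change of -0.05 with all samples and of -0.06 without Ctrl shRNA 2, where they ran from -0.19 (*Mcoln1*) to 0.03 (*Atg7*). The 21 genes with a promoter and no CACGTG had medians of 0.05 and -0.10. None of the 8 passed the test.

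Lysosomal membrane proteins line and equip the organelle. *Lamp1* had 1021, 941 and 1107 CPM across Ctrl shRNA 1 to 3 and 1038, 1045 and 1012 CPM across knockdown 1 to 3. The knockdown samples lay inside the control range, and the log2 fold change was 0.01 (SE 0.11, 95% interval -0.25 to 0.28, edgeR adjusted p = 0.963) and -0.05 without Ctrl shRNA 2 (interval -0.20 to 0.09). *Lamp2*, whose product also takes part in fusion and in chaperone-mediated autophagy, measured 352, 674 and 359.9 CPM in Ctrl shRNA 1, 2 and 3 and 312, 316 and 307 CPM after knockdown. All knockdown samples lay below all controls, and Ctrl shRNA 2 was at 1.89 times the mean of the other controls. The log2 fold change of *Lamp2* was -0.57 with all samples (SE 0.26, 95% interval -1.21 to 0.07, edgeR adjusted p = 0.366) and -0.20 without Ctrl shRNA 2 (SE 0.06, interval -0.34 to -0.06, edgeR adjusted p = 0.146). *Mcoln1*, the calcium channel TRPML1, had a log2 fold change of -0.11 with all samples and of -0.19 without Ctrl shRNA 2 (edgeR adjusted p = 0.175), where the knockdown samples were below both controls.

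The cathepsins are the proteases that digest delivered protein. All 3 had log2 fold changes below 0 in both fits, and none passed. *Ctsl* was at 118, 174 and 130.5 CPM in the 3 controls against 118, 115 and 113 CPM in the 3 knockdown samples. Knockdown 1 was only just below Ctrl shRNA 1, and Ctrl shRNA 2 was far above the rest. The log2 fold change of *Ctsl* was -0.29 with all samples (SE 0.15, 95% interval -0.65 to 0.07, edgeR adjusted p = 0.384) and -0.12 without Ctrl shRNA 2 (interval -0.27 to 0.04). *Ctsb* had log2 fold changes of -0.10 and -0.13 and *Ctsd* of -0.01 and -0.04. *Ctsb* shares 12.8% of its exonic bases with *Fdft1*, a gene of sterol synthesis on the opposite strand, which had a mean of 5092 counts per sample against 12742 for *Ctsb*.

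Genes whose groups did not overlap were counted next. With all samples, 5 of the 35 genes were higher in every knockdown sample than in every control and 7 lower, 34.3% together, against 25.4% of all genes (14.7% higher and 10.7% lower). The 5 were *Becn1*, *Pik3r4*, *Atg2b*, *Atg16l1* and *Tfe3*. Without Ctrl shRNA 2, 5 were higher and 11 lower, 45.7% together, against 37.9% (20.4% higher and 17.5% lower). The 11 lower genes were *Ulk2*, *Atg13*, *Rb1cc1* and *Wipi2* of initiation, *Gabarap*, *Atg4c* and *Atg10* of conjugation, and *Lamp2*, *Mcoln1*, *Ctsb* and *Ctsl* of the lysosome.

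Pairs of related genes were also compared within each sample, as the log2 ratio of their CPM, which does not depend on the scaling between samples. The *Ulk1*/*Ulk2* ratio was at 2.80, 2.81 and 2.89 in the controls and at 3.04, 3.26 and 3.06 in the knockdown. The groups did not overlap and Ctrl shRNA 2 lay with the other controls. The mean was 2.83 ± 0.05 (SD, n = 3) against 3.12 ± 0.12 (SD, n = 3), a difference of 0.28 (exact permutation test, two-sided, p = 0.1, which is the lowest reachable with 3 samples against 3, and 0.2 after Benjamini-Hochberg adjustment over the 6 ratios). Without Ctrl shRNA 2 the difference was 0.27.

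The *Tfeb*/*Tfe3* ratio was at -1.97, -2.19 and -1.84 in the controls and at -2.16, -2.31 and -2.40 in the knockdown. Knockdown 1 lay just above Ctrl shRNA 2. The difference was -0.29 (exact permutation p = 0.2, adjusted 0.3), and -0.39 without Ctrl shRNA 2 (exact permutation p = 0.1, the smallest possible there, adjusted 0.2). The *Lamp1*/*Lamp2* ratio was at 1.54, 0.48 and 1.62 in the controls and at 1.73, 1.73 and 1.72 in the knockdown, a difference of 0.51 with all samples and of 0.15 without Ctrl shRNA 2, with groups that did not overlap in either case (exact permutation p = 0.1 in both, adjusted 0.2). The *Gabarapl1*/*Gabarapl2* ratio differed by 0.86 with all samples (exact permutation p = 0.1, adjusted 0.2) and by 0.18 when Ctrl shRNA 2, at -1.87, was left out (exact permutation p = 0.2, adjusted 0.3). The *Atg2a*/*Atg2b* and *Wipi1*/*Wipi2* ratios differed by -0.07 and 0.03, with overlapping groups (exact permutation p = 0.5 and 0.9). These differences were -0.10 and 0.18 without Ctrl shRNA 2.

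**Figure D4:**
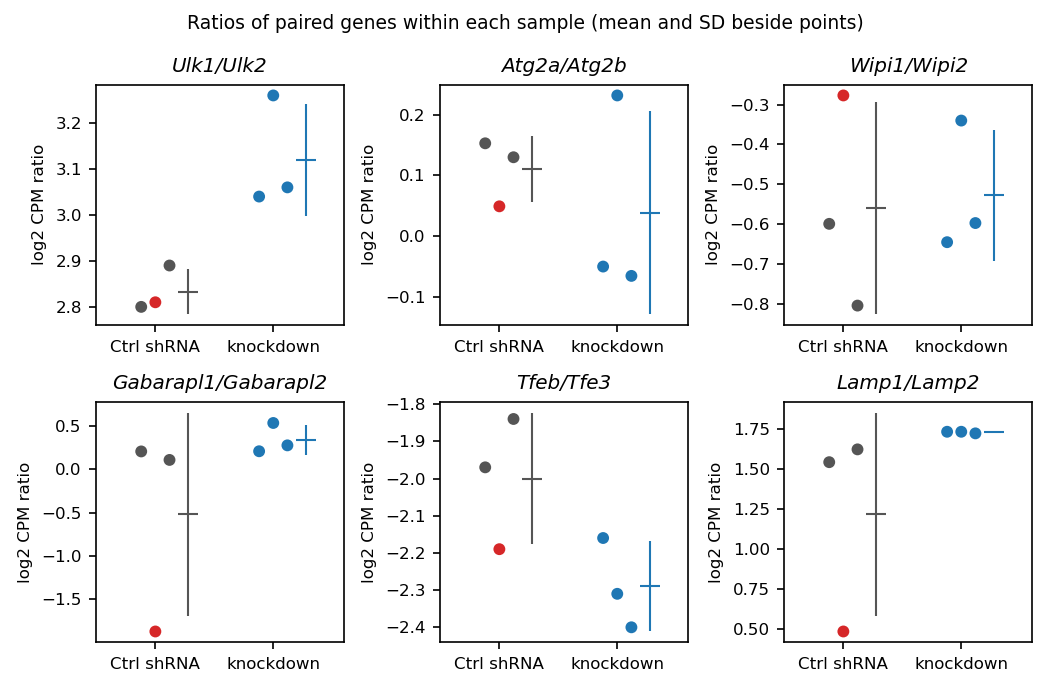
Log2 ratio of the CPM of 6 pairs of related genes in each sample (points, Ctrl shRNA 2 in red), with the group mean and SD beside them and a separate vertical scale in each panel. The groups do not overlap for *Ulk1*/*Ulk2*, *Gabarapl1*/*Gabarapl2* and *Lamp1*/*Lamp2*, and the last 2 have 1 far control, at -1.87 and 0.48.

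The deviation of Ctrl shRNA 2 from the other controls was set beside gene length. It was at least 1.5-fold above the mean of Ctrl shRNA 1 and 3 for 5 of the 35 genes (*Gabarapl2*, *Atg10*, *Atg5*, *Lamp2* and *Atg4a*), where 20.5% of all genes were, and at least 1.5-fold below it for 2 (*Atg7* and *Atg16l1*), where 10.4% were. Across the 35 genes, its log2 deviation and the log of gene length had a Pearson r of -0.50 and a Spearman rho of -0.46, against -0.28 and -0.23 over the 15307 genes tested. This is a correlation across genes of the same 3 libraries and is given as a description. For the 7 genes of 2001 to 3000 bases the median deviation was 0.42, against 0.02 over all tested genes of that length, and for the 19 genes over 5000 bases it was -0.19, against -0.12. The 4 genes with the lowest log2 fold changes with all samples, *Atg10*, *Gabarapl2*, *Gabarap* and *Lamp2*, were all higher in Ctrl shRNA 2 than in the other controls. Ctrl shRNA 2 is itself among the controls of those fold changes, so a high value in it lowers them and this overlap is no separate evidence.

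**Figure D5:**
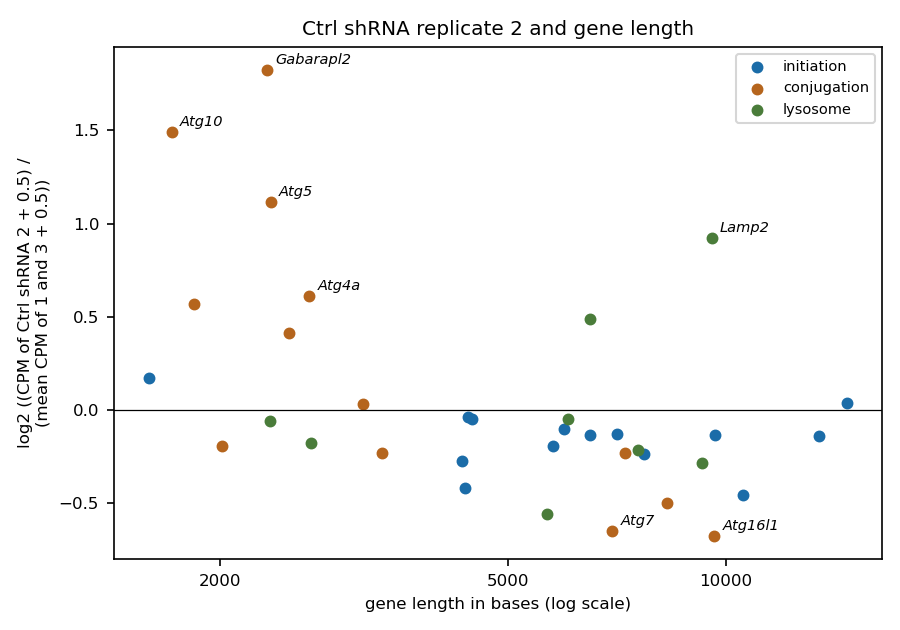
Log2 ratio of the CPM of Ctrl shRNA 2 to the mean of Ctrl shRNA 1 and 3 for the 35 genes, against gene length in bases on a log scale, coloured by step. The 7 genes that differ by at least 1.5-fold are named, and 4 of the 5 high ones are shorter than 3000 bases while both low ones are longer than 5000.

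Of 127 further autophagy and lysosome genes, listed from general knowledge, 119 were tested and none passed edgeR's test with all samples, with 14 at an unadjusted p under 0.05 (11.8%, against 14.1% of all genes). Their median log2 fold change was -0.03, and -0.05 without Ctrl shRNA 2. DESeq2 passed 1 of 118 as lower with all samples (0.847%, against 2.51% of all genes), and without Ctrl shRNA 2 it passed 2 of 117 as higher and 6 as lower (6.84%, against 6.58%). Limma's sample quality weights passed 5 of 119 as higher and 11 as lower (13.4%, against 15.0%). The 5 higher genes, named after their values were seen, were *Ctsh* and *Ctsc*, which encode lysosomal cathepsins, *Nrbf2*, *Optn* and *Tecpr1*, and *Ctsh* and *Nrbf2* were the 2 that DESeq2 passed as higher. The 11 lower genes included *Tmem41b* and the cargo receptor genes *Nbr1* and *Calcoco1*, also named after their values were seen. *Calcoco1* was also among the 6 that DESeq2 passed as lower (adjusted p = 0.0494).

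The LC3 genes are the other ATG8 family measured. *Map1lc3a* measured 103, 109 and 127 CPM in Ctrl shRNA 1, 2 and 3 and 96.8, 88.0 and 91.0 CPM after knockdown. All knockdown samples lay below all controls, with a log2 fold change of -0.30 (edgeR adjusted p = 0.338) and of -0.33 without Ctrl shRNA 2 (edgeR adjusted p = 0.117). *Map1lc3a* passed as lower with DESeq2 without Ctrl shRNA 2 (adjusted p = 0.0294) and with limma's sample quality weights (adjusted p = 0.0161). *Map1lc3b* was at 249, 534 and 266 CPM in the 3 controls against 249.7, 253 and 232 CPM in the 3 knockdown samples. Only Ctrl shRNA 2 stood away from the rest, and the log2 fold change was -0.51 with all samples and -0.08 without it. *Sqstm1*, which encodes the cargo receptor p62, had 375, 318 and 429 CPM across Ctrl shRNA 1 to 3 and 423, 407 and 404 CPM across knockdown 1 to 3, with overlapping groups and log2 fold changes of 0.14 and 0.02 (edgeR adjusted p = 0.588 and 0.889).

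Among these further genes are 16 of the vacuolar ATPase, which acidifies the lysosome. In Ctrl shRNA 2, 9 of the 16 were at least 1.5-fold above the other controls and none at least 1.5-fold below. Their median log2 fold change was -0.14 with all samples and -0.05 without Ctrl shRNA 2, and none passed with edgeR, DESeq2 or limma's sample quality weights. Of the 28 genes of MTORC1 and AMPK control none passed edgeR's test in either fit, with medians of -0.03 and -0.06. Among the calls of the other tools, *Lamtor2*, a subunit of the Ragulator complex, passed as lower with DESeq2 and all samples (log2 fold change -1.36, adjusted p = 0.0494) but not without Ctrl shRNA 2 (-0.85, adjusted p = 0.147), the library in which it was 2.27-fold above the other controls. *Ddit4*, which encodes an inhibitor of MTORC1, passed as lower with DESeq2 without Ctrl shRNA 2 (-0.53, adjusted p = 0.00654). Limma's sample quality weights passed *Lamtor2*, *Ddit4* and *Sesn2* as lower, and none of edgeR, DESeq2 and these weights passed any of the 28 as higher. These genes were named after their values were seen. Of 14 fusion genes none passed edgeR's test in either fit, with medians of 0.06 and 0.01, and DESeq2 without Ctrl shRNA 2 passed *Vamp7*, which encodes a SNARE protein of membrane fusion, as lower (-0.34, adjusted p = 0.0125), also named after its value was seen.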

How the data were processed

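RNA-seq of 6 MLE12 samples (3 per group) was analysed. Deposited by the authors were raw read counts for 54532 genes, as whole numbers, and FPKM of the same genes, scaled by gene length and by a library size 0.716 to 1.08 times the total count. The submitters' processing notes name HISAT2 2.0.5, StringTie 1.3.3b, featureCounts 1.5.0-p3 and mm10, without their settings or use of strand. All per-sample columns were used.

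The 35 genes and all lists were chosen with earlier results of these data known. Counts were filtered with filterByExpr, scaled with TMM and tested with the quasi-likelihood test of edgeR 4.0.16 (R 4.3.3), Benjamini-Hochberg adjustment across every gene tested and a threshold of 0.05. Standard errors were derived from the fold change and its F statistic. CPM used TMM library sizes, and 0.5 CPM was added to both sides of ratios between controls. Alternatives were DESeq2 1.42.0, limma 3.58.1 (log2(FPKM + 1), log2(FPKM + 0.1), or voom with sample quality weights), other size factors and filters, the replicate number as a block, and each library left out. After seeing the data, 3 further fits without Ctrl shRNA replicate 2 were added.

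Values in every sample are given for members past the threshold in either fit, for the 2 highest and 2 lowest log2 fold changes and the highest CPM per kilobase in each step, and for both genes of 6 pairs. Of the further genes listed, 1 result is not reported here. On simulated counts with 200 genes changed 2-fold, edgeR recovered 25.5% with the spread of all 6 libraries (14891 genes tested) and 91.0% with the spread of the other 5 libraries (15152 genes tested). DESeq2 recovered 67.5% with all 6, with 69 false calls beside 135 true ones, where edgeR made 6 beside 51. The simulation gave a gene the same spread in every sample, while in the data Ctrl shRNA 2 stood apart. Its changed genes were drawn only from genes above a set mean count. These shares therefore need not hold for the data. Replicate pairs differed by more than sampling noise (chi-square per degree of freedom 5.67 to 454), so each sample was counted once. Exonic overlaps were taken from GENCODE M21 (GRCm38), in which 98.33% of the matched genes had the same start and end.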

Additional observations from a re-analysis of the deposited data

How the results depend on the processing

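Of 216 values of named genes under alternatives that kept all 6 samples, 203 kept their direction and side of the threshold, 9 passed it and 4 changed sign. The 4 were *Wipi2* (-0.0761), *Tfeb* (-0.0691), *Lamp1* (-0.0783) and *Sqstm1* (-0.0102), with limma's sample quality weights. Of 216 under fits leaving out a library, 189 stayed, 15 passed and 12 changed sign. Leaving out each replicate in turn gave -0.101 to 0.116 for *Wipi2*, -0.0984 to 0.178 for *Tfeb* and -0.0535 to 0.0592 for *Lamp1*, 0 to 175 genes higher and 0 to 106 lower over all genes, medians of -0.0595 to 0.0184 for the 35 genes and -0.109 to -0.0218 for the lysosome list, and log2 fold changes of -0.997 to -0.602 for *Idh3a* and -0.664 to -0.574 for *Slc25a1*. The highest counts were reached without Ctrl shRNA replicate 2, and none of the 35 genes passed in edgeR's fits leaving out a library.

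Against 9 genes higher and 1 lower with all samples, DESeq2 passed 218 and 135, and sample quality weights 1327 and 971, including 2 and 1 of the 35 genes, with medians of -0.0761 for the 35 genes and -0.111 for the lysosome list. *Idh3a* (-0.844 and -0.673) and *Slc25a1* (-0.622 and -0.677) passed in both. Without the count filter and with limma on either FPKM scale, 3 genes were lower. Scaling by total count only passed 1 higher and 0 lower and moved the medians to 0.162 (35 genes), 0.205 (initiation), 0.0611 (conjugation) and 0.114 (lysosome), beside 0.16 over all genes. Without Ctrl shRNA replicate 2, DESeq2 passed 490 and 330, with 1 and 1 of the 35 genes, median-of-ratios factors 179 and 102, and total count 178 and 105. In the same order the median of the 35 genes was -0.0524, -0.0551 and -0.0454, and that of the lysosome list -0.102 and -0.104 under DESeq2 and median-of-ratios factors. *Idh3a* was at -0.595, -0.597 and -0.588 and *Slc25a1* at -0.657, -0.659 and -0.651, and both passed in all 3. *Wipi2* was at -0.094, -0.0964 and -0.0883, *Tfeb* at -0.0916, -0.0938 and -0.0858, and *Lamp1* at -0.0466, -0.049 and -0.0401. The cause of these shifts was not tested.

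With the replicate number as a block, 0 genes were higher and 0 lower. Deviations of same-numbered samples had correlations of -0.21, -0.16 and 0.02, and those of differently numbered samples reached 0.22. No label says that same-numbered samples were paired, so the pairing was not used. With 3 samples per group this check cannot exclude a shared batch. The limits are the 3 samples per group, 1 of them apart from the rest, and the wide spread with all samples. With that spread set equal in every simulated sample, which the data do not have, edgeR recovered few of the 2-fold changes.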
